A study of Ovis aries with 15 samples.

Results

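Hepatokines are proteins that the liver secretes and that act on other organs. Transcripts of 7 such genes, FGF21, ANGPTL4, FETUB, SELENOP, INHBE, INHBA and LECT2, were followed in the liver of fetal sheep (Ovis aries). The 7 genes were taken by name from a count table of 31411 genes, and all 7 were among the 16977 genes that had enough reads to be tested. INHBE had enough reads only by its GD100 libraries. Liver was taken at gestational day 100 (GD100, 4 libraries), day 124 (GD124, 5 libraries) and day 144 (GD144, 6 libraries), the last close to term, and poly(A) RNA was sequenced from both ends of each fragment. No treatment, genotype, breed or sex is given in the labels, which do not say either whether each library came from its own fetus or its own pregnancy. The p-values therefore measure the spread between these libraries. The library codes have a different prefix at each stage, so a collection or cohort difference and the stage cannot be told apart.

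The 7 proteins belong to several families. FGF21 is a fasting and stress hormone that signals through FGF receptors together with the co-receptor beta-klotho, and ANGPTL4 inhibits lipoprotein lipase, the enzyme that releases fatty acids from circulating triglyceride. INHBA and INHBE encode the beta subunits of activin A and activin E, dimeric ligands of the TGF-beta superfamily, and FETUB (fetuin-B) is a cystatin-family inhibitor of astacin proteinases. SELENOP carries selenium from the liver to other tissues as selenocysteine, and LECT2 is a hepatocyte-derived plasma protein first known as a leukocyte attractant.

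Levels are given in CPM, the counts of a gene scaled to a common library total, with TMM factors, which correct the library totals for a few genes taking up a large share of reads. Library totals were 24215611 to 38247314 counts, and 3 counts in a library were worth 0.0797 to 0.128 CPM, the level below which a gene was regarded as at the floor. Differences are log2 fold changes, later stage over earlier stage, with their standard error (SE), from edgeR's quasi-likelihood test fitted to all tested genes, and a gene was called at a Benjamini-Hochberg adjusted p below 0.05 over all of them. Levels of different genes are not compared, because the counts were not divided by transcript length.

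Between GD124 and GD100, 5 of the 7 hepatokine genes were called, 4 higher and 1 lower, where 34.0% of all tested genes were called, 16.6% higher and 17.4% lower. Between GD144 and GD124, 4 of 7 were called, 3 higher and 1 lower, against 27.5% of all genes, 12.1% higher and 15.4% lower. Over the whole span, GD144 against GD100, 6 of 7 were called, 4 higher and 2 lower, against 55.0% of all genes, 27.1% higher and 27.9% lower. The libraries of the 2 stages did not overlap for 4, 4 and 5 of the 7 genes in these 3 comparisons, where 24.3%, 18.8% and 40.0% of all tested genes had no overlap. The median size of the log2 change, whatever its sign, was 0.95, 1.69 and 2.25 over the 7 genes and 0.49, 0.37 and 0.70 over all genes. The 7 genes were chosen with earlier results of these data known, so the values for all genes are a description and no test of the set. Each interval uses the GD124 libraries, so the changes over the earlier and the later interval are not independent of each other. The change itself differed between the intervals for 1 of the 7 genes, FETUB, where 5.90% of all genes passed that test, 2.15% with a higher and 3.75% with a lower later change.

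**Figure D1:**
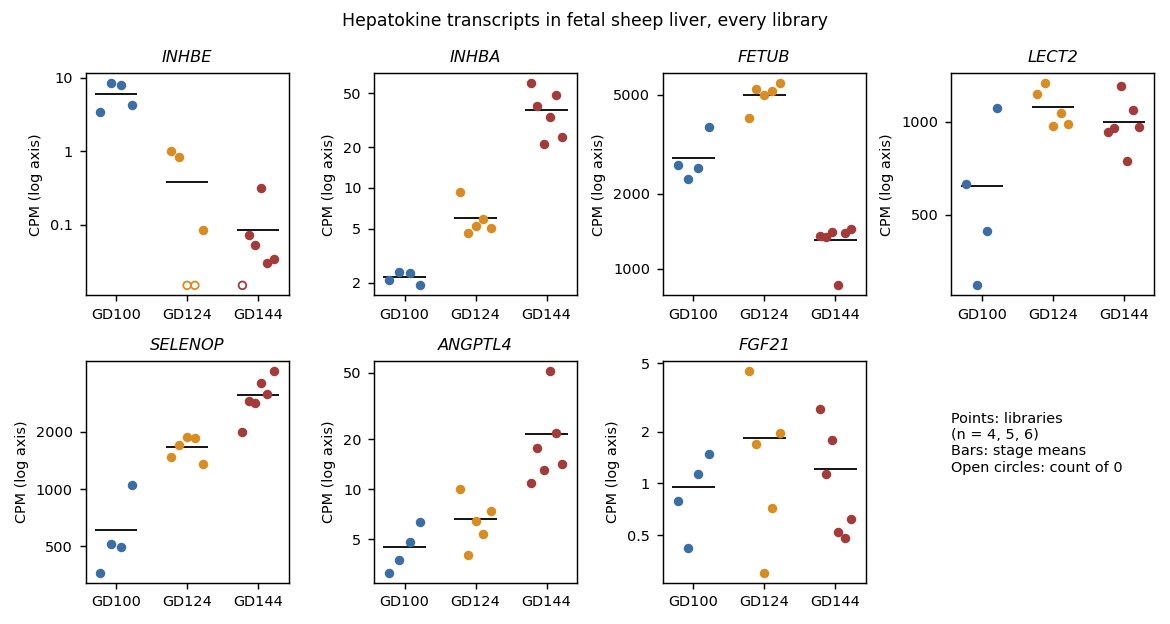
Level of each hepatokine gene in every library, in CPM on a log axis, at GD100 (4 libraries), GD124 (5) and GD144 (6); points are libraries, bars are stage means, and open circles mark libraries with a count of 0, drawn at the bottom of the axis. INHBA lay higher at each later stage, INHBE lay near the floor at GD144, and FETUB was highest at GD124 and lowest at GD144.

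INHBA, the activin A subunit, had the steepest rise of the 7 genes. Its level was 2.08, 2.41, 2.37 and 1.92 CPM in the GD100 libraries, and 9.29, 4.68, 5.24, 5.94 and 5.08 CPM in the GD124 libraries. At GD144 its lowest, median and highest libraries had 21.1, 36.6 and 59.0 CPM. Every GD124 library was above every GD100 library, and every GD144 library was above every GD124 library. INHBA rose at GD124 against GD100 by 1.46 ± 0.29 on the log2 scale (adjusted p = 0.00165, edgeR) and at GD144 against GD124 by 2.63 ± 0.27 (adjusted p = 8.4e-06). The change over the later interval ranked 124 from the top among the 16977 tested genes. Over the whole span the difference was 4.09 ± 0.32 (adjusted p = 7.7e-08), or 17.1-fold. The larger size of the later change did not pass the test of the difference between the intervals (1.17 ± 0.47 on the log2 scale, adjusted p = 0.144, edgeR). With replicate 1 as the only GD100 library the GD124 against GD100 difference was 1.53 on the log2 scale, close to that with all libraries. Its adjusted p was then 0.0929 (edgeR) in a fit that takes the spread from the GD124 and GD144 libraries and assumes that the lone GD100 library varies like them.

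INHBE, the activin E subunit, fell. Its level was 3.44, 8.35, 7.90 and 4.26 CPM at GD100, which stood for 109 to 239 reads per library. At GD124 it was 1.01, 0.828, 0, 0 and 0.0854 CPM, and the libraries of the 2 stages did not overlap. At GD144 the lowest, median and highest libraries had 0, 0.0439 and 0.317 CPM. Replicate 4 of GD144 had 11 reads and the other 5 GD144 libraries had 0 to 2 reads, so all but 1 GD144 library lay at or under the floor of 3 counts. The gene was kept for testing through GD100, the stage where it was high, so its place among the tested genes is no separate sign of a fall. INHBE fell at GD124 against GD100 by 3.93 ± 0.95 on the log2 scale (adjusted p = 0.00581, edgeR). At GD144 against GD100 the difference was -6.04 ± 1.01 (95% interval -8.19 to -3.89, adjusted p = 0.000126), whose size is poorly fixed at so few reads and was -7.14 without GD144 replicate 4. GD144 and GD124 overlapped and the difference of -2.11 ± 1.0 between them was not called (adjusted p = 0.133, edgeR). The GD124 against GD100 difference was -4.70 without GD124 replicate 1. With replicate 1 as the only GD100 library it was -3.14 (adjusted p = 0.166, edgeR, with the spread taken from the other 2 stages).

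Activins are dimers of inhibin beta subunits, INHA encodes the alpha subunit that turns a dimer into an inhibin, and follistatin (FST) and follistatin-like 3 (FSTL3) bind and neutralise activins. Of 24 listed genes of this system 21 were tested. At GD124 against GD100 7 were higher and 0 lower, at GD144 against GD124 5 were higher and 5 lower, and at GD144 against GD100 10 were higher and 5 lower. In either direction 34.0%, 27.5% and 55.0% of all tested genes were called in these comparisons. The median log2 change of the list was 0.29, 0.03 and 0.30, and that of all genes 0.015, -0.01 and 0.03.

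Besides INHBE, the subunit gene INHBC fell. INHBC averaged 4.52 ± 0.855 CPM at GD100, 2.77 ± 2.66 at GD124 and 0.520 ± 0.224 at GD144 (SD, n = 4, 5 and 6). At GD144 against GD124 it fell by 2.41 ± 0.50 on the log2 scale (adjusted p = 0.00184, edgeR), and all GD144 libraries were below all GD124 libraries. The GD124 against GD100 difference, -0.70 ± 0.51, was not called with all libraries (adjusted p = 0.311, edgeR) and was called without GD124 replicate 1 (-1.48, adjusted p = 0.0162), in which INHBC was at 7.39 CPM. That library also had the highest INHBE and INHBA levels of its stage. INHBB differed by -1.40 ± 0.57 at GD144 against GD100 (adjusted p = 0.0508, edgeR), and by -2.11 without GD144 replicate 1 (adjusted p = 0.000991). INHA lay near the floor throughout, at stage means of 0.290, 0.292 and 0.156 CPM at GD100, GD124 and GD144.

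Both activin-binding proteins fell over the later interval, in which INHBA rose. FST was at 11.3, 8.87, 27.3 and 51.1 CPM at GD100 and at 47.8, 38.8, 76.7, 69.4 and 85.5 CPM at GD124. Its lowest, median and highest GD144 libraries had 4.65, 6.78 and 18.8 CPM, all below every GD124 library. FST fell at GD144 against GD124 by 2.85 ± 0.47 on the log2 scale (adjusted p = 0.00053, edgeR). FSTL3 fell by 2.32 ± 0.29 (adjusted p = 4.5e-05, edgeR), to a mean of 6.53 ± 2.14 CPM at GD144, against 32.5 ± 7.44 CPM at GD124 (SD, n = 6 and 5). The log2 ratio of INHBA to FST counts within a library was 2.16 ± 0.59 at GD144 and -3.38 ± 0.69 at GD124 (SD), a difference of 5.54 (exact two-sided permutation test, p = 0.00433, the smallest this design allows, and 0.00866 after adjustment over 4 comparisons). A ratio of counts within a gene pair carries both transcript lengths and is read only between stages, and this ratio was chosen after its values had been seen. INHBA lay higher and FST lower in every GD144 library than in every GD124 library. The ratio could therefore not overlap between these stages, which fixed its p in advance, and it adds nothing to the tests of the 2 genes. At GD124 against GD100 the ratio differed by -0.24, less than its spread (exact two-sided permutation p = 0.746).

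Receptor and response genes moved in both directions. The type II receptor ACVR2A rose at GD144 against GD100 by 2.05 ± 0.36 on the log2 scale (adjusted p = 0.000167, edgeR) to a mean of 2.45 CPM, and the inhibin co-receptor TGFBR3 rose by 1.47 ± 0.24 (adjusted p = 7.24e-05). ACVR2B, the other type II receptor, fell at GD144 against GD124 by 0.93 ± 0.19 (adjusted p = 0.00174, edgeR). The type I receptor ACVR1B differed by 0.31 ± 0.16 at GD144 against GD100, short of the threshold (adjusted p = 0.119, edgeR). ACVR1, a type I receptor used mainly by BMPs, rose at GD124 against GD100 by 0.97 ± 0.21 (adjusted p = 0.00285), and the proprotein convertase PCSK6 by 0.95 ± 0.25 (adjusted p = 0.00957, edgeR). ACVR1C, a type I receptor gene for several activins, never exceeded 0.173 CPM and was not tested.

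SMAD7 and PMEPA1, feedback inhibitors that TGF-beta and activin signalling induce in many cells, rose at GD144 against GD124 by 1.34 ± 0.14 (adjusted p = 1.44e-05) and 0.82 ± 0.15 (adjusted p = 0.000731, edgeR). SMAD7 averaged 9.90 ± 1.75 CPM at GD100, 14.6 ± 2.02 at GD124 and 36.8 ± 6.24 at GD144 (SD, n = 4, 5 and 6), and its GD144 libraries were all above those of GD124. FSTL1, a secreted follistatin-like protein, rose at GD144 against GD100 by 0.96 ± 0.21 (adjusted p = 0.000927, edgeR).

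Levels in whole liver pool all cell types, and fewer cells of a type and less RNA per cell cannot be told apart. INHBA is made by mesenchymal and endothelial cells as well as by hepatocytes in other species. The summed level of all 10 stellate cell and fibroblast markers ranged over 690 to 1090 CPM in GD100 livers, 1060 to 1420 CPM in GD124 livers and 1010 to 1780 CPM in GD144 livers. The 9 endothelial markers found in the table summed to 231 to 380, 274 to 514 and 509 to 756 CPM at these stages, and the 8 macrophage markers to 85.9 to 381, 324 to 549 and 389 to 706 CPM. None of these lists was at 0 at any stage, and their part in the INHBA change was not tested.

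**Figure D2:**
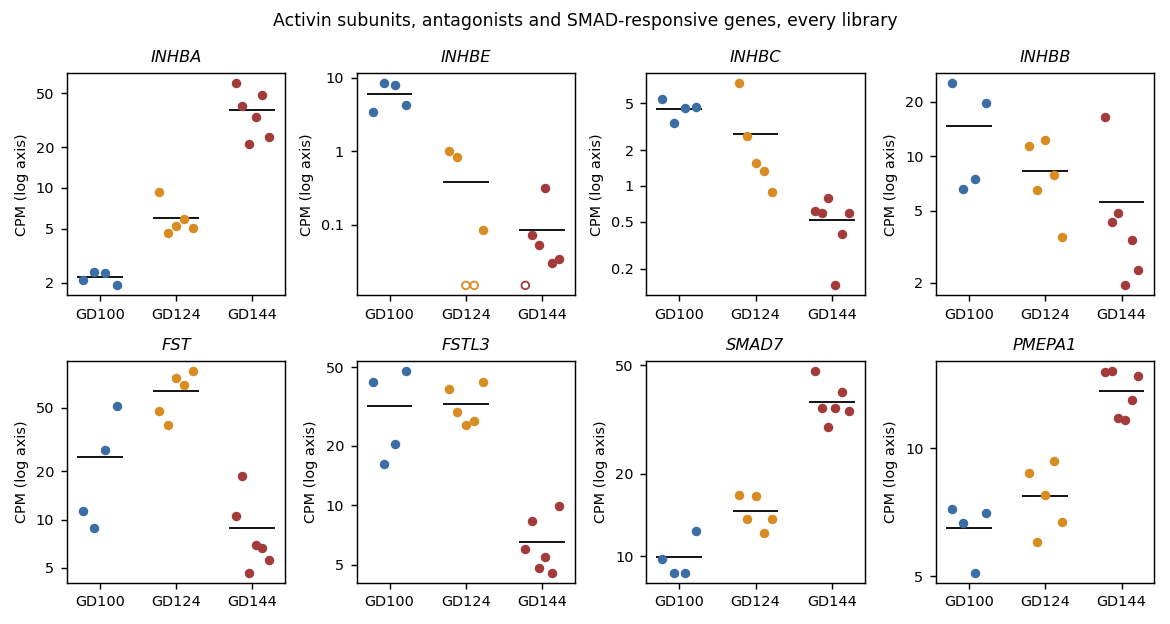
Level of 8 genes of the activin system in every library, in CPM on log axes, at GD100, GD124 and GD144; points are libraries, bars are stage means, and open circles are libraries with a count of 0. At GD144 INHBA, SMAD7 and PMEPA1 lay above their GD124 libraries, while INHBC, FST and FSTL3 lay below theirs.

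FETUB peaked at GD124 and was lowest at GD144. It stood at 2616, 2298, 2538 and 3718 CPM at GD100 and at 4036, 5280.2, 5012, 5169 and 5563 CPM at GD124. At GD144 the lowest, median and highest libraries had 858, 1373 and 1446 CPM. The 3 stages did not overlap in any pair: every GD124 library was above every GD100 library, and every GD144 library was below both. FETUB rose at GD124 against GD100 by 0.84 ± 0.21 on the log2 scale (adjusted p = 0.00559, edgeR). It fell at GD144 against GD124 by 1.95 ± 0.19 (adjusted p = 4.68e-06, edgeR), or 3.85-fold, and by 1.10 ± 0.19 at GD144 against GD100 (adjusted p = 0.000143). The later change differed from the earlier one by -2.79 ± 0.32 (adjusted p = 0.000465, edgeR). Within GD144, 5 libraries lay between 1346 and 1446 CPM and replicate 4 at 858 CPM.

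The closest relative of FETUB, AHSG (fetuin-A, an inhibitor of soft-tissue calcification), also rose at GD124, and its lower level at GD144 was called under some settings only. AHSG averaged 38958 ± 20817 CPM at GD100, 98389 ± 9667 at GD124 and 65374 ± 10089 at GD144 (SD, n = 4, 5 and 6). It rose at GD124 against GD100 by 1.34 ± 0.31 on the log2 scale (adjusted p = 0.00426, edgeR). At GD144 against GD124 its libraries did not overlap and all lay lower, but the difference of -0.59 ± 0.27 was not called (adjusted p = 0.12, edgeR). It was called under 3 of 22 alternative settings, without GD100 replicate 4 (adjusted p = 0.0273), with replicate 1 as the only GD100 library (adjusted p = 0.00936, edgeR) and with DESeq2 (adjusted p = 0.0348). The log2 ratio of FETUB to AHSG counts within a library was -5.66 ± 0.29 at GD144 and -4.30 ± 0.11 at GD124 (SD, n = 6 and 5), a difference of -1.36 (exact two-sided permutation test, p = 0.00433, 0.00866 adjusted over 4 comparisons). At GD124 it was -4.30 ± 0.11 and at GD100 -3.70 ± 0.38, a difference of -0.60 (exact two-sided permutation test, p = 0.0317, 0.0423 adjusted, and up to 0.0714 unadjusted when 1 library was left out). These ratios too were chosen after the values had been seen.

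Of 10 listed fetuin relatives and proteinase genes 8 were tested. At GD124 against GD100 4 were higher and 1 lower, at GD144 against GD124 1 was higher and 0 lower, and at GD144 against GD100 4 were higher and 2 lower, with median log2 changes of 0.77, -0.12 and 0.68. All tested genes were called at shares of 34.0%, 27.5% and 55.0%, either way. HRG and KNG1, plasma glycoproteins with cystatin domains that neighbour the fetuin genes in RefSeq's sheep annotation, rose at GD124 against GD100 by 2.21 ± 0.36 (adjusted p = 0.000435) and 1.48 ± 0.23 (adjusted p = 0.000369, edgeR). KNG1 then differed by -0.20 ± 0.20 at GD144 against GD124 (adjusted p = 0.501, edgeR). CTSL, which encodes the lysosomal proteinase cathepsin L, rose at GD144 against GD100 by 3.03 ± 0.35 (adjusted p = 2.51e-06, edgeR).

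SELENOP rose over both intervals. At GD100 its level was 364, 517, 496 and 1054 CPM, and at GD124 it was 1477, 1717, 1875, 1866 and 1360.01 CPM. The lowest, median and highest GD144 libraries had 2004, 3040 and 4199.6 CPM. No pair of stages overlapped, and GD100 replicate 4 stood nearest to the GD124 libraries. SELENOP rose at GD124 against GD100 by 1.45 ± 0.29 on the log2 scale (adjusted p = 0.00152, edgeR) and at GD144 against GD124 by 0.91 ± 0.25 (adjusted p = 0.0136), and was 5.14-fold higher at GD144 than at GD100 (adjusted p = 5.32e-06). With replicate 1 as the only GD100 library the differences from GD100 were larger, 2.19 at GD124 and 3.11 at GD144 on the log2 scale.

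Other selenoproteins did not move as a block. Of 23 listed, 20 were tested: 5 were higher and 4 lower at GD124 against GD100, 4 higher and 2 lower at GD144 against GD124, and 11 higher and 4 lower at GD144 against GD100, with median log2 changes of 0.30, 0.09 and 0.34. For all tested genes the shares called, higher or lower, were 34.0%, 27.5% and 55.0%. DIO1, the deiodinase that activates thyroid hormone in liver, rose at GD144 against GD100 by 2.50 ± 0.28 (adjusted p = 1.81e-06, edgeR), with means of 113 ± 49.0 CPM in GD100 livers, 212 ± 44.8 CPM in GD124 livers and 638 ± 140 CPM in GD144 livers (SD, n = 4, 5 and 6). GPX3, the plasma glutathione peroxidase, rose by 2.52 ± 0.54 (adjusted p = 0.000954). SELENOI, an ethanolamine phosphotransferase, rose at GD124 against GD100 by 1.26 ± 0.21 (adjusted p = 0.000611, edgeR).

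GPX1, the cytosolic glutathione peroxidase, fell at GD144 against GD100 by 3.59 ± 0.38 on the log2 scale (adjusted p = 1.19e-06, edgeR), with means of 1255 ± 575 CPM at GD100, 421 ± 103 at GD124 and 104 ± 62.7 at GD144 (SD, n = 4, 5 and 6). TXNRD2, the mitochondrial thioredoxin reductase, fell by 2.46 ± 0.21 (adjusted p = 1.37e-07, edgeR). GPX4, which reduces lipid peroxides, differed by 0.10 ± 0.21 (adjusted p = 0.731).

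**Figure D3:**
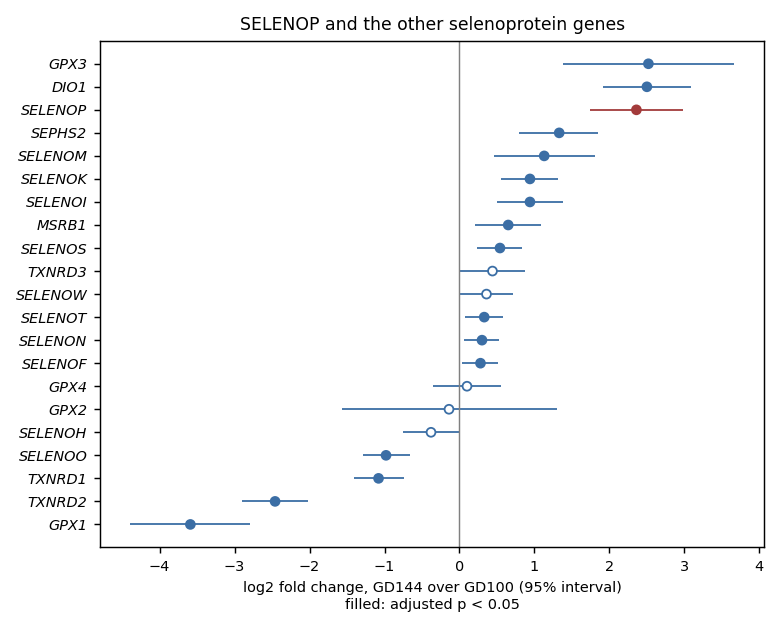
Log2 change at GD144 against GD100 of SELENOP (red) and the 20 other tested selenoprotein genes (blue), with 95% intervals; filled points were called at an adjusted p below 0.05 and open points were not. SELENOP, DIO1 and GPX3 lay to the right, while GPX1 and TXNRD2 lay to the left.

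Among 13 genes of selenium handling and selenocysteine synthesis, all tested, 3 were higher and 2 lower at GD124 against GD100, 2 higher and 1 lower at GD144 against GD124, and 4 higher and 5 lower at GD144 against GD100. Calls in either direction took in 34.0%, 27.5% and 55.0% of all tested genes. The median log2 changes of the 13 genes were -0.10, -0.02 and -0.01. SEPHS2, which makes selenophosphate, and SEPSECS, which forms selenocysteine on its tRNA, rose at GD144 against GD100 by 1.33 ± 0.25 (adjusted p = 0.000255) and 1.27 ± 0.17 (adjusted p = 1.08e-05, edgeR). SECISBP2, which lets ribosomes read UGA as selenocysteine, differed by -0.18 ± 0.19 (adjusted p = 0.434). LRP8, a receptor that takes up SELENOP in brain and testis, fell by 4.79 ± 0.49 (adjusted p = 9.45e-07, edgeR), with means of 13.8 ± 2.96 CPM at GD100, 4.58 ± 2.03 at GD124 and 0.487 ± 0.470 at GD144 (SD, n = 4, 5 and 6). LRP1, another receptor of that family, rose by 1.22 ± 0.20 (adjusted p = 9.69e-05).

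Markers of red cell precursors were lower at the later stages, as were GPX1, LRP8 and INHBE. The 9 erythroid markers in the table summed to 3820 to 9270 CPM in GD100 livers, 1450 to 2920 CPM in GD124 livers and 72.8 to 679 CPM in GD144 livers. Called lower were 2 of the 9 at GD124 against GD100, 9 at GD144 against GD124 and 9 at GD144 against GD100. Of all tested genes 17.4%, 15.4% and 27.9% were called lower in these comparisons. The highest GD144 libraries for GPX1 (231 CPM) and LRP8 (1.41 CPM) were both replicate 3, which also had the highest erythroid sum of that stage, 679 CPM. At GD100, INHBE was highest in replicates 2 and 3, the libraries with the largest erythroid sums (9271 and 7484 CPM, against 4056 and 3821 CPM in replicates 1 and 4) and the smallest hepatocyte sums. The later stages, with INHBE near the floor, did not show this order. At GD124 the largest erythroid sum was in replicate 5 (2917 CPM), where INHBE was at 0.0854 CPM. INHBE was highest there in replicate 1 (1.01 CPM, erythroid sum 1774 CPM). At GD144 INHBE was highest in replicate 4 (0.317 CPM, erythroid sum 114 CPM) and at 0.0531 CPM in replicate 3. The part of these cells in the changes of GPX1, LRP8 or INHBE was not tested.

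LECT2 had no called change over the later interval. At GD100 it was at 630, 295, 442 and 1109 CPM, and at GD124 at 1225, 1330.4, 970, 1066 and 980 CPM. The lowest, median and highest GD144 libraries had 748, 956 and 1304 CPM. GD100 was the stage with the widest spread (coefficient of variation 57.2%, against 14.2% at GD124 and 18.7% at GD144), and GD100 replicate 4 lay within the range of the later stages. LECT2 was called higher at GD124 against GD100 by 0.85 ± 0.29 on the log2 scale (adjusted p = 0.0346, edgeR) and at GD144 against GD100 by 0.69 ± 0.28 (adjusted p = 0.0485). Neither call was stable: the first was lost under 9 of 22 alternative settings, with an adjusted p of up to 0.116, and the second under 18 of 22, up to 0.133. At GD144 against GD124 the difference was -0.16 ± 0.26 (95% interval -0.71 to 0.39, adjusted p = 0.692, edgeR).

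Within GD100, LECT2 levels followed the hepatocyte markers. The 9 hepatocyte markers in the table summed to 79024 CPM in replicate 1, 31684 in replicate 2, 36317 in replicate 3 and 105233 in replicate 4, and LECT2 had the same order of libraries. These sums were 125000 to 154000 CPM at GD124 and 104000 to 147000 CPM at GD144, where the order of libraries was not shared. The GD124 library with the largest sum, replicate 3 (153857 CPM), had the lowest LECT2 of that stage, 970 CPM. At GD144 LECT2 was highest in replicate 3 (1304 CPM), with a sum of 130791 CPM, and the largest sum was in replicate 6 (147026 CPM). SELENOP was likewise highest in replicate 4 of GD100, and lowest in replicate 1. ALB (means of 27930, 70690 and 66330 CPM at GD100, GD124 and GD144) and SERPINA1 (23630, 39590 and 29350 CPM) gave the largest parts of these sums. A change of such genes per cell and a change of the hepatocyte share cannot be told apart in them. The part of the hepatocyte share of RNA in the GD124 against GD100 changes of LECT2, SELENOP and FETUB was not tested. GD100 replicates 2 to 4 also differed from the other 12 libraries in the counting, with fractional values for 10.6% to 10.8% of genes against 5.09% to 6.20%, but all counts of the 7 hepatokine genes were whole numbers.

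Of 17 listed genes for LECT2 receptors and Wnt signalling 16 were tested. At GD124 against GD100 5 were higher and 1 lower, at GD144 against GD124 4 were higher and 0 lower, and at GD144 against GD100 8 were higher and 0 lower, with median log2 changes of 0.37, 0.12 and 0.56. Over all tested genes these shares were 16.6%, 12.1% and 27.1% higher and 17.4%, 15.4% and 27.9% lower. MET, the HGF receptor that LECT2 binds, rose at GD124 against GD100 by 1.36 ± 0.25 (adjusted p = 0.000925, edgeR). TIE1, an endothelial receptor of LECT2, rose at GD144 against GD124 by 0.95 ± 0.27 (adjusted p = 0.0147), and its partner TEK by 1.15 ± 0.26 (adjusted p = 0.00426, edgeR), along with the endothelial marker sums given above, which include TEK. CTNNB1, beta-catenin, rose at GD124 against GD100 by 0.72 ± 0.18 (adjusted p = 0.00707, edgeR).

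ANGPTL4 rose over the later interval. It was at 3.16, 3.77, 4.84 and 6.34 CPM at GD100, and at 9.98, 4.03, 6.48, 5.42 and 7.43 CPM at GD124. The lowest, median and highest GD144 libraries had 10.9, 16.0 and 51.7 CPM. GD124 and GD100 overlapped, and the difference of 0.56 ± 0.42 on the log2 scale was not called (adjusted p = 0.319, edgeR). Every GD144 library was above every GD124 library, with a rise of 1.69 ± 0.38 (adjusted p = 0.00404, edgeR), and the difference at GD144 against GD100 was 2.25 ± 0.43 (adjusted p = 0.000375). Replicate 4 of GD144 stood apart at 51.7 CPM, where the other 5 libraries lay between 10.9 and 21.7 CPM. Without it the GD144 against GD124 difference was 1.26 (adjusted p = 0.00267, edgeR). The test of the difference between the intervals was not passed (1.13 ± 0.69, adjusted p = 0.34).

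The partners of ANGPTL4 in triglyceride clearance rose or showed no called change. Of 12 genes listed with lipoprotein lipase, all tested, 5 were higher and 0 lower at GD124 against GD100, 1 higher and 0 lower at GD144 against GD124, and 7 higher and 0 lower at GD144 against GD100, with median log2 changes of 0.62, 0.45 and 0.73. The shares over all tested genes were 16.6%, 12.1% and 27.1% higher and 17.4%, 15.4% and 27.9% lower. Its target LPL differed by 0.25 ± 0.31 on the log2 scale at GD144 against GD100 (adjusted p = 0.525, edgeR), and GPIHBP1, which holds LPL on capillaries, by 0.36 ± 0.48 (adjusted p = 0.548).

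ANGPTL8, a liver-made relative of ANGPTL4, rose at GD124 against GD100 by 4.59 ± 1.06 on the log2 scale (adjusted p = 0.00495, edgeR). Its GD124 libraries ran from 0.537 to 33.3 CPM, and without replicate 1, the highest, the difference was 3.27. APOA5, an apolipoprotein that promotes lipase action, rose at GD144 against GD100 by 2.17 ± 0.40 (adjusted p = 0.000281, edgeR), and SDC1, a hepatic receptor for lipoprotein remnants, rose at GD144 against GD124 by 0.70 ± 0.19 (adjusted p = 0.0101, edgeR).

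ANGPTL4 and FGF21 are both known targets of PPARA, the fatty acid receptor of the fasting liver. Of 24 listed genes of that programme 22 were tested: 7 were higher and 1 lower at GD124 against GD100, 14 higher and 0 lower at GD144 against GD124, and 15 higher and 0 lower at GD144 against GD100, with median log2 changes of 0.30, 0.58 and 0.99. Across all tested genes 16.6%, 12.1% and 27.1% were higher and 17.4%, 15.4% and 27.9% lower. Over the later interval, GD144 against GD124, PDK4 (which shuts down pyruvate oxidation) rose by 2.89 ± 0.32 on the log2 scale (adjusted p = 1.92e-05) and ACSL1 (which activates fatty acids) by 2.94 ± 0.36 (adjusted p = 4.21e-05, edgeR). The coactivator PPARGC1A rose over both intervals, by 1.38 ± 0.23 at GD124 against GD100 (adjusted p = 0.000547) and by 1.01 ± 0.20 at GD144 against GD124 (adjusted p = 0.00166, edgeR). PPARA itself rose at GD144 against GD100 by 0.62 ± 0.15 (adjusted p = 0.00239), and CREB3L3, a hepatic transcription factor that works with it, by 0.95 ± 0.27 (adjusted p = 0.00621, edgeR). Replicate 4 of GD144, highest for ANGPTL4, was also highest for PDK4, at 446 CPM where the other 5 had 120.1 to 209 CPM, and for CREB3L3, at 172 CPM where the others had 72.4 to 96.1 CPM. FGF21 was not high in that library, at 0.519 CPM where the others had 0.481 to 2.69 CPM. The cause of the levels in that library was not tested.

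FGF21 was the hepatokine gene with no called change in any comparison. It was at 0.790, 0.419, 1.13 and 1.49 CPM at GD100, and at 4.52, 1.69, 0.302, 0.718 and 1.96 CPM at GD124. The lowest, median and highest GD144 libraries had 0.481, 0.881 and 2.69 CPM. All 3 stages overlapped, and the GD124 libraries spread the widest, 15-fold between the lowest and the highest. The log2 differences were 0.95 ± 0.68 at GD124 against GD100 (95% interval -0.50 to 2.39, adjusted p = 0.302), -0.61 ± 0.60 at GD144 against GD124 (-1.87 to 0.66, adjusted p = 0.489) and 0.34 ± 0.65 at GD144 against GD100 (-1.05 to 1.72, adjusted p = 0.686, edgeR). Changes of 2-fold or more in either direction lie within the interval from GD144 against GD100. Without GD124 replicate 1 the difference at GD124 against GD100 was 0.28, and that at GD144 against GD124 was 0.05.

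Some genes on the receptor side of the FGF21 pathway had called changes. Of 17 listed genes 16 were tested, of which 5 were higher and 0 lower at GD124 against GD100, 5 higher and 2 lower at GD144 against GD124, and 9 higher and 1 lower at GD144 against GD100, with median log2 changes of 0.47, 0.18 and 0.63. Among all tested genes 16.6%, 12.1% and 27.1% were higher and 17.4%, 15.4% and 27.9% lower in these comparisons. KLB, which encodes beta-klotho, rose at GD124 against GD100 by 1.13 ± 0.25 (adjusted p = 0.00299) and at GD144 against GD100 by 1.16 ± 0.24 (adjusted p = 0.00071, edgeR). Its mean was 69.1 ± 33 CPM in the GD100 libraries, 151 ± 16.1 CPM in those of GD124 and 154 ± 33.9 CPM in those of GD144 (SD, n = 4, 5 and 6). KL, the alpha-klotho gene, rose at GD144 against GD100 by 3.45 ± 0.47 (adjusted p = 2.26e-05, edgeR). FGFR1, the main FGF21 receptor of fat, and FGFR4, the main FGF receptor of hepatocytes, differed by -0.10 ± 0.18 (adjusted p = 0.674) and 0.31 ± 0.21 (adjusted p = 0.234, edgeR) in that comparison. The other FGF receptor genes rose, FGFR2 by 1.07 ± 0.18 (adjusted p = 0.00012) and FGFR3 by 0.70 ± 0.21 (adjusted p = 0.0101, edgeR), and no FGFR2 library of GD144 overlapped those of GD100.

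Genes that FGF signalling, among other growth signals, induces did not move one way. At GD144 against GD124 the immediate early gene EGR1 rose by 3.48 ± 0.65 on the log2 scale (adjusted p = 0.00141) and the feedback inhibitor SPRY4 by 1.89 ± 0.34 (adjusted p = 0.000651), while the transcription factor ETV4 fell by 1.79 ± 0.40 (adjusted p = 0.00315, edgeR). EGR1 differed by 2.82 without GD144 replicate 2.

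FGF21 and INHBE are also known as targets of ATF4, the transcription factor of the integrated stress response. Of 29 listed genes of that response 26 were tested: 5 were higher and 4 lower at GD124 against GD100, 7 higher and 4 lower at GD144 against GD124, and 12 higher and 4 lower at GD144 against GD100, with median log2 changes of 0.16, 0.29 and 0.54. As a share of all tested genes, calls in either direction were 34.0%, 27.5% and 55.0%. ATF4 itself was called lower at GD124 against GD100 (-0.37 ± 0.13 on the log2 scale, adjusted p = 0.0434, edgeR), without overlap of the libraries, a call that 12 of 22 alternative settings lost (adjusted p up to 0.129). At GD144 against GD100, ATF4 differed by -0.31 ± 0.13 (adjusted p = 0.0522, edgeR), which 8 of 22 settings called, among them DESeq2 (adjusted p = 0.007). No change was called there for 2 of its targets: DDIT3 (CHOP) differed by 0.19 ± 0.32 (adjusted p = 0.638) and ASNS (asparagine synthetase) by 0.11 ± 0.20 (adjusted p = 0.645, edgeR). TRIB3, a pseudokinase induced by the same response, rose by 2.95 ± 0.33 (adjusted p = 2.09e-06), and CEBPB, a transcription factor, by 2.09 ± 0.25 (adjusted p = 3.78e-06). The serine synthesis enzyme PSPH fell by 3.72 ± 0.32 (adjusted p = 2.5e-07) and the mitochondrial folate enzyme MTHFD2 by 1.63 ± 0.28 (adjusted p = 0.000114, edgeR).

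**Figure D4:**
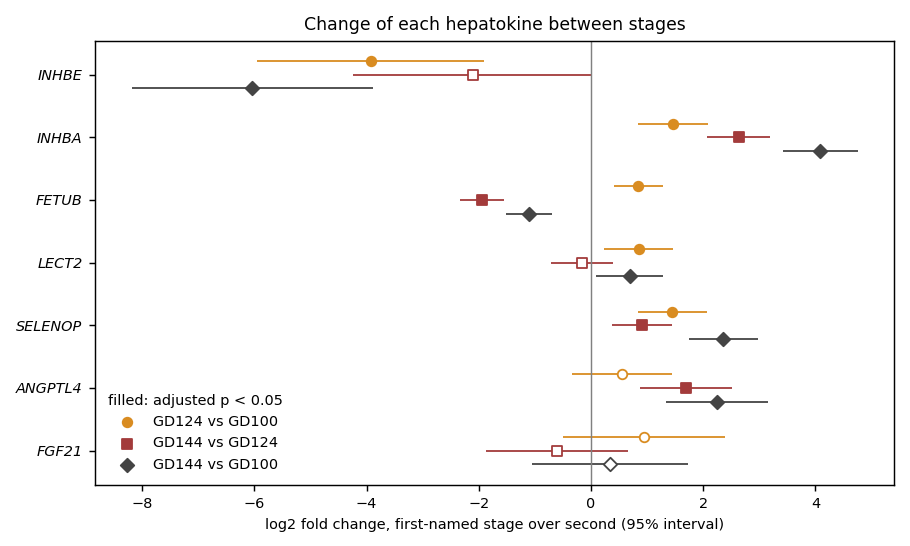
Log2 change of each of the 7 hepatokine genes in the 3 comparisons of stages (later stage over earlier), with 95% intervals; filled points were called at an adjusted p below 0.05 and open points were not. Over the whole span INHBA lies furthest to the right and INHBE furthest to the left, and the FETUB points lie on both sides of 0.

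The genes whose log2 CPM over the 15 libraries was most like each hepatokine gene were picked from 8220 named genes averaging at least 10 CPM, by Pearson's r. These values describe libraries that share their stage, so r of the deviations from the stage means is given as well. SELENOP was most like MAOB, AIFM1 and GABARAPL1 (r = 0.98 each, and 0.86, 0.83 and 0.83 within stages), which encode an amine oxidase, a mitochondrial flavoprotein and an autophagy protein. LECT2 was most like the secreted or liver-typical genes VKORC1, SERPINF1 and HABP2 (r = 0.95, 0.94 and 0.93, and 0.89, 0.87 and 0.87 within stages). For INHBA the nearest were TMEM135, SMAD7 and PPP1R3C (r = 0.98, 0.97 and 0.97), where r within stages was only 0.59, 0.55 and 0.39. INHBE was nearest to APEX1, VPS4A and VCF1 (r = 0.95, 0.94 and 0.92, and 0.73, 0.68 and 0.57 within stages).

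FETUB was nearest to PIAS1, SLC17A2 and ARHGEF6 (r = 0.96, 0.95 and 0.93, and 0.45, 0.69 and 0.64 within stages). ANGPTL4 was nearest to MLYCD, malonyl-CoA decarboxylase, and to COIL and USP25 (r = 0.94 each, and 0.78, 0.79 and 0.78 within stages). FGF21 was nearest to HYI, NANOS1 and SPOCK1 (r = 0.79, 0.75 and 0.71, and 0.80, 0.75 and 0.74 within stages).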

How the data were processed

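The authors deposited a table of estimated counts per gene, made with DRAGEN per the submitters' processing notes. The genome build, annotation and strand setting are not given in the sources used. Fractional values made up 6.549% of it, and all were rounded to whole numbers, which moved no library total by more than 27.86. Genes were kept by filterByExpr by stage, scaled with TMM and tested with edgeR 4.0.16 (glmQLFit, robust, and glmQLFTest; limma 3.58.1, R 4.3.3) in 1 fit of all 15 libraries with stage as the only term. Benjamini-Hochberg adjustment ran over all 16977 tested genes, with a threshold of 0.05. The biological coefficient of variation was 34%, and intervals are at the 95% level. The fit was tested on simulated counts with the same spread for all genes and stages. No replicate pair agreed within sampling noise (chi-square per degree of freedom at least 43.72). That value ran from 43.72 to 480.2 in GD100 pairs, 55.51 to 110.8 in GD124 pairs and 61.69 to 184.9 in GD144 pairs. The simulation therefore does not cover the unequal spread of these stages.

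The 7 genes and all lists were chosen with earlier results of these data known. Genes named from the lists are fixed ones and the 3 largest called changes in each direction, as far as they add to the account. Some genes of the lists are counted but not reported here by name, and FGFR2 and FGFR3 were added after their values had been seen. The 3 most alike genes were found on log2 CPM with a prior count of 2. Gene names matched a RefSeq symbol of ARS-UI_Ramb_v3.0 for 28863 genes. None of the 7 genes overlaps another in that annotation. FGFR1, ETV4, ANGPTL8, ATF4, DDIT3, GPX3, TXNRD2, AHSG, CTSL, TEK, DPP4 and PPARA overlap other genes there, so their counts are uncertain without a known strand setting. Alternatives were RLE factors, total counts alone, 2 other filters, a replicate block, DESeq2 1.42.0, leaving out each library in turn, and keeping only replicate 1 of GD100.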

Additional observations from a re-analysis of the deposited data

Results flagged for a closer look

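In 216 groups of 1 gene at 1 stage, the library farthest from the others was compared with the range of its group by Dixon's criterion. Chance passes it in about 1 of 20 groups of normally distributed values. It was applied to CPM without a log, so that rate need not hold here. The criterion was passed in 20 groups, of which 4 were in the 7 hepatokine genes. All flagged libraries but those for FETUB and TSKU were the highest of their group. At GD144, replicate 4 was highest for ANGPTL4 (51.7 CPM) and INHBE (0.317 CPM, from 11 reads) and lowest for FETUB (858 CPM). The same library was highest for PDK4 (446 CPM), CREB3L3 (172 CPM), LRP1 (324 CPM) and CTNNB1 (214 CPM). At GD124, replicate 1 was highest for INHBA (9.29 CPM), INHBC (7.39 CPM) and ANGPTL8 (33.3 CPM).

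Other libraries stood apart in 1 or 2 genes. INHBB reached 16.5 CPM in GD144 replicate 1 and DPP4 99.9 CPM in GD144 replicate 2. In GD144 replicate 3, GPX1 was at 231 CPM and LRP8 at 1.41 CPM. KL was at 69.2 CPM in GD144 replicate 6 and at 20.9 CPM in GD124 replicate 4, and EGR1 was at 13.4 CPM in GD124 replicate 3. LRP8 was at 8.15 CPM in GD124 replicate 5. In GD100 replicate 4, AHSG was at 69827 CPM, the highest of its stage, and TSKU at 15.5 CPM, the lowest.

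For 16 named genes the log2 change at GD144 against GD124 differed from that at GD124 against GD100 by edgeR's test of the difference. The later change was the lower one for FETUB (-2.79), FST (-4.22), FSTL3 (-2.36), ACVR2B (-1.29), ACVR1 (-1.24), SELENOI (-1.57), SEPSECS (-1.49), AHSG (-1.93), HRG (-2.24), KNG1 (-1.68), MET (-1.41), GDF15 (-3.11), TTR (-2.41) and DPP4 (-1.06). It was the higher one for ACSL1 (2.66) and TSKU (2.13). These calls held under all 22 alternative settings for FETUB, SELENOI, SEPSECS and TSKU. They were lost under 14 of 22 for ACVR1 and MET, 13 for ACVR2B and 8 for AHSG and DPP4. Both intervals use the GD124 libraries, so a GD124 level that is off moves the 2 changes in opposite directions.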

How the results depend on the processing

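Over 22 alternatives, 584 of 616 checks of the 7 hepatokine genes kept the direction and the side of the threshold, 29 lost the call, 1 gained it and 2 turned in sign, and 12 of 16 calls were kept throughout. For the other named genes, 1911 of 2043 checks were kept, and 56 of 77 calls throughout. When 1 library was left out, sign changes occurred only in uncalled differences, with ranges of -0.99 to 0.05 for FGF21 at GD144 against GD124 and, at GD144 against GD100, of -0.06 to 0.64 for FGF21, -0.18 to 0.02 for FGFR1, -0.04 to 0.63 for DDIT3, -0.07 to 0.36 for GPX4 and -0.34 to 0.04 for SECISBP2. The INHBA to FST ratio at GD124 against GD100 ranged from -0.77 to 0.19. Keeping only replicate 1 of GD100 turned uncalled GD144 against GD100 differences to -0.21 for ACVR1B, -0.41 for LPL, -0.63 for DDIT3, -0.22 for ASNS, -0.48 for GPX4 and 0.06 for SECISBP2. LECT2 gained a call for the difference between the intervals without GD100 replicate 4 (adjusted p = 0.0224, edgeR).

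With that 1 GD100 library, 3167 genes were called at GD124 against GD100, in place of 5774. That fit takes the spread from the other stages and assumes that the lone library varies like them, so calls lost in it follow in part from having 1 library. FST at GD124 against GD100 was called without GD100 replicate 4 (adjusted p = 0.00824, edgeR). The 1002 calls for the difference between the intervals became 1816 with DESeq2 and 379 to 1743 when 1 library was left out. Total counts alone shifted the median of all genes by -0.164 at GD124 against GD100, with 1805 genes higher and 4055 lower in place of 2825 and 2949, and split the 1177 calls between the intervals into 789 and 388. At GD144 against GD124 the split was then 2520 higher and 2138 lower, against 2046 and 2617.

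Same-numbered libraries did not deviate together (13 pairs, r from -0.356 to 0.281, 2 over 0.1). No pairing by number was seen, but correlations of deviations in so few libraries cannot exclude one. With the replicate block 4544, 3306 and 8259 genes were called in the 3 comparisons of stages and 325 between the intervals. Under the block LECT2 (adjusted p = 0.0664 and 0.0826) and TIE1 (0.0648) lost their calls between stages, as did ATF4 at GD124 against GD100 (0.115). Of 16 named genes called for the difference between the intervals, 6 held under the block (FETUB, FSTL3, SELENOI, SEPSECS, TTR and TSKU) and 10 did not. The causes of these moves were not tested. INHBE was at or under the floor of 3 counts in 5 of 6 GD144 and 3 of 5 GD124 libraries, which limits the precision of that comparison.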

Other observations

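Of 36 other listed hormones and hormone-like proteins of the liver 30 were tested, of which 16 were higher and 0 lower at GD124 against GD100, 4 higher and 3 lower at GD144 against GD124, and 17 higher and 2 lower at GD144 against GD100, with median log2 changes of 0.68, 0.19 and 0.86. Over all tested genes 16.6%, 12.1% and 27.1% were higher and 17.4%, 15.4% and 27.9% lower in these comparisons. The hepatocyte marker sum, which includes TTR of this list, was also higher at GD124 (125000 to 154000 CPM) than at GD100 (31700 to 105000 CPM). Its part in the counts was not tested. FGL1, a hepatocyte-secreted ligand of the immune receptor LAG3, rose at GD144 against GD100 by 3.30 ± 0.57 (adjusted p = 0.00019, edgeR), to a mean of 359 ± 131 CPM at GD144, against 36.6 ± 25.9 CPM at GD100 (SD, n = 6 and 4). DPP4, a peptidase that is also shed into plasma, rose by 2.27 ± 0.17 (adjusted p = 6.2e-08, edgeR).

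TTR, the carrier of thyroid hormone, was like FETUB highest at GD124. It rose at GD124 against GD100 by 1.11 ± 0.32 on the log2 scale (adjusted p = 0.0153) and fell at GD144 against GD124 by 1.30 ± 0.29 (adjusted p = 0.00292, edgeR). The first of these calls was lost without GD100 replicate 3 (adjusted p = 0.0559, edgeR). TSKU, a secreted leucine-rich protein, rose at GD144 against GD124 by 1.55 ± 0.22 (adjusted p = 0.000121), while the stress cytokine GDF15 fell by 1.83 ± 0.42 (adjusted p = 0.00379) and the iron-siderophore carrier LCN2 by 1.92 ± 0.45 (adjusted p = 0.00486, edgeR). GDF15 and LCN2 were at means of 0.799 and 1.38 CPM at GD144, against 2.83 and 5.28 CPM at GD124.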
